A study of Homo sapiens with 4 samples.

Results

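The genes described here were the protein-coding ZNF zinc finger genes of human chromosome 19, chosen by symbol (ZNF, a number and at most 1 letter) and by chromosome, with no use of their measured values. The rule gave 247 genes of the 62710 in the table, and 264 genes with the same kind of symbol lay on other chromosomes. Messenger RNA was sequenced from the gastric cancer cell lines HGC27 and MKN45 in 4 libraries, 1 for each line and treatment. The groups were HGC27 in 0.3 µM periplocymarin, HGC27 in 0.1% DMSO (the vehicle), MKN45 in 0.3 µM periplocymarin and MKN45 in 0.1% DMSO, each for 24 h. All were grown in RPMI-1640 medium with fetal bovine serum, and no further genetic change is given in the labels. HGC27 is an undifferentiated line, taken from a lymph node metastasis, and MKN45 is a line of poorly differentiated adenocarcinoma. The cardiac glycoside periplocymarin is a plant compound that blocks the sodium pump.

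C2H2 zinc fingers are short protein loops in which a pair of cysteines and a pair of histidines hold a zinc ion. Fingers in a row read DNA a few bases at a time, so proteins with many fingers can recognise long sites. Most ZNF proteins of chromosome 19 also carry a KRAB domain, which recruits the corepressor TRIM28 (KAP1) and, through it, the histone methyltransferase SETDB1 and heterochromatin protein 1. Many KRAB zinc finger proteins bind and silence transposable elements. The genes lie in tandem clusters that grew by local duplication.

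A KRAB box was found in the longest coding transcript of 209 of the 247 genes, and none was found in 38. The search asked for 10 of 13 conserved positions, so a shortened or diverged box can be among the 38. The genes coded for a median of 12 fingers, with a range of 0 to 36. Members lay in 20 clusters, counting neighbours less than 500 kb apart as 1 cluster, and 223 of the 247 lay in the 8 clusters with at least 10 members.

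The sequence of 1 finger from each of 3 genes on which the results turn is shown as its coding sequence (63 bases, GENCODE 29, GRCh38), with the codons of the 2 cysteines and 2 histidines in capitals. ZNF358, the gene that passed the treatment test, is shown from chr19:7519699-7519761 (plus strand). ZNF776, a KRAB gene with one of the largest positive differences, is shown from chr19:57753926-57753988 (plus strand). ZNF146, the most abundant member, is shown from chr19:36236492-36236554 (plus strand). The base composition differs between them: the coding GC content was 67.8% for ZNF358, 44.5% for ZNF776 and 42.4% for ZNF146.
ZNF358: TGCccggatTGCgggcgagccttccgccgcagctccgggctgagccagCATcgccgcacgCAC
ZNF776: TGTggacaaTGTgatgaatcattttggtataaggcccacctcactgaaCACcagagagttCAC
ZNF146: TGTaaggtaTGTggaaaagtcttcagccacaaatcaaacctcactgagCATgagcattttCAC

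Promoters of 4 members are shown because they stand at the ends of the results: ZNF358 and ZNF302 had the largest negative treatment differences, ZNF776 one of the largest positive ones, and ZNF256 was read in MKN45 alone. Each window runs from 250 bases before to 50 bases after the RefSeq gene start (GRCh38.p14). The windows are chr19:7515853-7516152 for ZNF358, chr19:34677428-34677727 for ZNF302 and chr19:57746565-57746864 for ZNF776, all on the plus strand, and chr19:57947657-57947956 on the minus strand for ZNF256. Capitals mark matches on either strand to an ETS motif, a YY1 motif, a CCAAT box or a TATA box, whose letters are given with their counts after the sequences, and no match was found in ZNF358. The ETS matches in ZNF256 overlap each other.
ZNF358: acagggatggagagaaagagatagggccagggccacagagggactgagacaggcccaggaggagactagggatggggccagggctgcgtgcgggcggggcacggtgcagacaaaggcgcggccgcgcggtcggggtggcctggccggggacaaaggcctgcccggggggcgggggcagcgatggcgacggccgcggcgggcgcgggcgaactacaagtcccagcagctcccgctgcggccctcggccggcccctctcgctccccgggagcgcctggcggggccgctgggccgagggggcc
ZNF302: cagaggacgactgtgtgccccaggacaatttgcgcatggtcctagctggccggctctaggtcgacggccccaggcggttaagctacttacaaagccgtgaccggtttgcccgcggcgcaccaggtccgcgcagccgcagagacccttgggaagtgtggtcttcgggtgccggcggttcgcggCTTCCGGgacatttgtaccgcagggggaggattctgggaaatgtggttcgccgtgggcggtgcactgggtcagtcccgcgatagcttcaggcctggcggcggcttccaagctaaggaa
ZNF776: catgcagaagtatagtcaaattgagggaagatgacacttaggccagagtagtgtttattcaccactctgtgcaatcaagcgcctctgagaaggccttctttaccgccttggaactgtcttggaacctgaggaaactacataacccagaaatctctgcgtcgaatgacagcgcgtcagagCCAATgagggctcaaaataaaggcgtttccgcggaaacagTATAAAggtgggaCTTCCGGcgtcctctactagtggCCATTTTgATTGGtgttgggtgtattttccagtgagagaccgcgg
ZNF256: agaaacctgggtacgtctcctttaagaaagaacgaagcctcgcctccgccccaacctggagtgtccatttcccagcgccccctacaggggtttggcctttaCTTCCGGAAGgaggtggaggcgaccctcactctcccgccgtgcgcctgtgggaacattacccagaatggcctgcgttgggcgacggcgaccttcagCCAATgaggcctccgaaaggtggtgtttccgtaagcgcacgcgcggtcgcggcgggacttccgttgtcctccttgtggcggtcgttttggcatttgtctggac

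The ETS motif, searched as CCGGAAG on either strand, stood in 98 of the 216 member promoters that RefSeq matched (45.4%), in 34.4% of 212 promoters of ZNF genes on other chromosomes and in 10.7% of all 27305 promoters. Among the 13322 promoters with at least 15 CpG it stood in 18.8%. Member promoters held a median of 20 CpG, against 24 for ZNF genes on other chromosomes and 14 over all promoters. The box spelled CCAAT was found in 53.7% of member promoters, 43.9% for ZNF genes elsewhere and 35.7% of all promoters. Among promoters with at least 15 CpG it stood in 33.1%. A TATA box, searched as TATAAA, was in 1.85% of member promoters and 12% of all promoters. It was in 3.77% for ZNF genes elsewhere and 3.84% of promoters with at least 15 CpG. For YY1 the motif was searched as CCATNTT, and it stood in 18.5% of member promoters and 15.9% of all promoters. Within the family, the ETS motif stood in 49.2% of the 181 promoters of KRAB genes and in 25.7% of the 35 promoters of genes with no KRAB box found. By treatment, among the 10 members with the largest positive differences 3 of 8 matched promoters held it, and among the 10 with the largest negative differences also 3 of 8. The matches are letters in a window and were not tested as binding sites.

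The recovered read totals were 24929692 for HGC27 in periplocymarin, 26850261 for HGC27 in DMSO, 27702693 for MKN45 in periplocymarin and 36599156 for MKN45 in DMSO. MKN45 carried epithelial markers: KRT18 stood at 1120 and 581 FPKM and EPCAM at 448 and 268 FPKM in periplocymarin and DMSO. In both HGC27 libraries all 5 epithelial markers were under 1 FPKM, VIM was at 379.6 and 406 FPKM and the mesenchymal cadherin CDH2 was at or near 0. The leukocyte and endothelial markers PTPRC, CD3E and PECAM1 were at or near 0 in all 4 libraries, while the macrophage marker CD68 had 0.0393 FPKM in periplocymarin and 0.186 in DMSO in HGC27, and 2.46 and 1.07 in MKN45, and its part in the results was not tested. Mitochondrially encoded genes took 3.38% of reads in periplocymarin and 6.9% in DMSO in HGC27, and 5.11% and 11.1% in MKN45, and their part in the results was not tested. FPKM is a read count scaled by gene length and library size, so FPKM of different genes can be compared.

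Members were expressed at low levels. They took 0.346% of reads in HGC27 in periplocymarin and 0.415% in DMSO, and 0.245% and 0.235% in MKN45. In HGC27, 136 members reached 1 FPKM in periplocymarin and 155 in DMSO, and 30 and 22 were at 0. In MKN45, 122 reached 1 FPKM in periplocymarin and 132 in DMSO, and 57 and 50 were at 0. Of all members 177 were above 0 in every library and 13 were at 0 in every library. Averaged over the 4 libraries, 142 members reached 1 FPKM, and all 142 also had the mean of at least 10 reads that the test required. The other 105 were not tested. The tested members had a median mean level of 2.34 FPKM, against 6.34 FPKM over all 12353 genes tested. Exons of another gene overlapped 81 of the 142, on the same strand for 48 and on the other strand for 46. The counting rule is not given, so for these members reads of the partner may be included. Tandem copies also resemble each other closely, and how reads that match several copies were counted is not given, so levels of close paralogs are uncertain.

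Levels spanned a wide range within the family. ZNF146 (OZF), a protein made almost wholly of zinc fingers with no KRAB domain, was the most abundant member. It had 139.6 FPKM in periplocymarin and 93.4 FPKM in DMSO in HGC27, and 76.7 in periplocymarin and 34.4 in DMSO in MKN45. ZNF317, a KRAB gene, followed with 31.8 FPKM with periplocymarin and 21.7 with DMSO in HGC27, and 16.6 with periplocymarin and 10.6 with DMSO in MKN45. ZNF121, with no KRAB box found, had 26.9 FPKM with periplocymarin and 17.8 with DMSO in HGC27, and 18.5 with periplocymarin and 10.2 with DMSO in MKN45. Next were ZNF260 (mean 11.3 FPKM) and ZNF700 (mean 10.7 FPKM), and only these 5 members reached a mean of 10 FPKM. ZNF266, ZNF561 and ZNF507 completed the 8 most abundant, at means of 8.15, 7.19 and 7.14 FPKM. ZNF146 lay above every other member in all 4 libraries, while ZNF121 stood above ZNF317 only in treated MKN45.

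The main comparison asked which members differed between periplocymarin and DMSO over both lines. Of 142 tested members none rose and 1 fell, ZNF358, while 141 did not pass. Over all 12353 genes, 3.43% rose and 3.17% fell, and both shares were above those of the members. The test was limma on log2(FPKM + 1), blocked by cell line, with Benjamini-Hochberg adjustment over all genes, at an adjusted p under 0.05. The fitted difference of the members (treated minus vehicle) had a median of 0.034, an interquartile range of -0.23 to 0.27 and extremes of -1.43 and 0.93. Over all genes the median was 0.062 and the interquartile range -0.39 to 0.48. Before adjustment, 18 members (12.7%) had a limma p under 0.05, 11 of them higher and 7 lower in periplocymarin, against 28.4% of all genes. With limma-voom on recovered reads 0 members were called higher and 3 lower. None of these shares or spreads was matched for level. The tested members had a median of 2.34 FPKM, against 6.34 FPKM over all genes tested, and the log2(FPKM + 1) scale understates changes of low genes. The sign of the members' median depended on the scaling: it was 0.27 with quantile normalization, -0.16 with library totals alone and -0.13 with limma-voom on recovered reads. With library totals alone the median of all genes was -0.16 as well, so the members lay no further down than genes at large on that scaling. The median of all genes was 0.027 with quantile normalization and -0.059 with limma-voom. Members thus lay above genes at large on the first of these and below them on the second. Nothing in the labels says that libraries came from separate cultures beyond the lines. With 1 library per line and treatment, the p-values rest on how far the responses of the lines differ, moderated over all genes. They concern these 4 libraries only and hold no spread between replicate libraries.

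ZNF358, a gene with 9 fingers and no KRAB box found, had 4.69 FPKM in periplocymarin and 14 FPKM in DMSO in HGC27. In MKN45 it had 0.523 FPKM in periplocymarin and 3.17 FPKM in DMSO. It was lower in periplocymarin in both lines, and the level in treated HGC27 was above that in MKN45 in DMSO. The fitted difference was -1.43 ± 0.29 on the log2(FPKM + 1) scale (moderated SE, limma adjusted p = 0.0289), a scale that understates the change of low genes. On the FPKM itself the log2 ratio was -1.58 in HGC27, with a 95% counting interval of -1.80 to -1.37, and -2.60 in MKN45, with an interval of -3.24 to -2.01. The reads behind these values were 230 and 943 in HGC27 and 26 and 243 in MKN45. Its adjusted p ranged from 0.00333 to 0.877 over the alternatives, and the call was lost with no filter on low values (limma adjusted p = 0.346) and with no cell line block (0.877). ZNF358 lies at chr19:7515292-7521026, and AC008878.1 on the same strand and AC008878.4 on the other strand overlap its exons.

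ZNF302 was nearest to the threshold among the members that did not pass. This KRAB gene with 7 fingers had 5.42 FPKM in periplocymarin and 15.5 FPKM in DMSO in HGC27, and 1.89 in periplocymarin and 4.35 in DMSO in MKN45. Its fitted difference was -1.13 ± 0.29 (limma adjusted p = 0.0515). It passed with library totals alone (adjusted p = 0.00957), a pseudocount of 0.1 (0.0358) and limma-voom on recovered reads (0.0312). Its neighbour ZNF181, also a KRAB gene, had 1.34 FPKM with periplocymarin and 6.49 with DMSO in HGC27, and 0.555 with periplocymarin and 1.15 with DMSO in MKN45, a fitted difference of -1.07 ± 0.36 (adjusted p = 0.0947). ZNF30 in the same cluster had 2.10 FPKM with periplocymarin and 3.53 with DMSO in HGC27, and 1.68 with periplocymarin and 2 with DMSO in MKN45 (-0.35 ± 0.31). All 3 tested members of that cluster, which spans 0.286 Mb, were lower in periplocymarin in both lines.

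**Figure D1:**
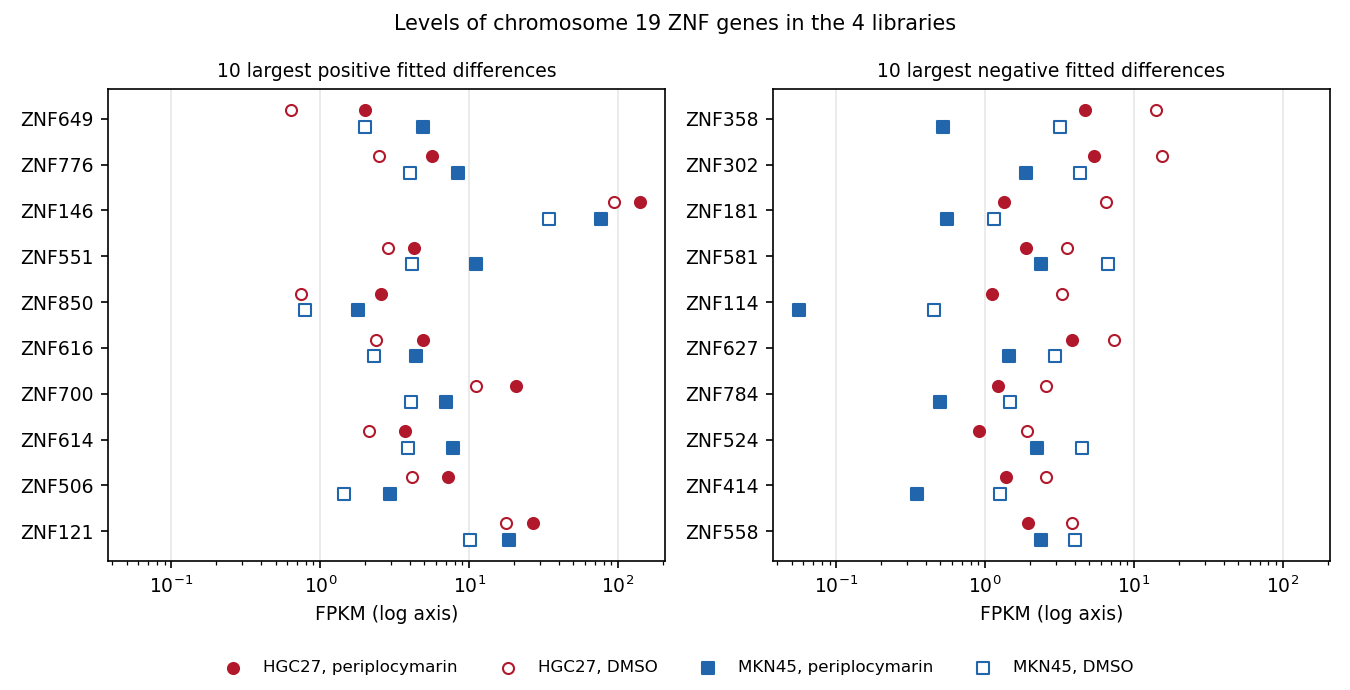
FPKM on a log axis for the 10 members with the largest positive (left) and the 10 with the largest negative (right) fitted treatment differences. Filled marks are periplocymarin and open marks DMSO, red circles HGC27 and blue squares MKN45, 1 library each. The filled mark lies on the same side of the open mark in both lines for all 20 genes, and ZNF358 alone passed the test.

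The largest positive differences were shared by both lines but did not pass. ZNF776, a KRAB gene with 9 fingers, had 5.64 FPKM in periplocymarin and 2.48 FPKM in DMSO in HGC27. In MKN45 it had 8.47 FPKM with periplocymarin and 3.99 with DMSO, a fitted difference of 0.93 ± 0.29 (limma adjusted p = 0.0746). ZNF649, another KRAB gene, had 2.01 FPKM with periplocymarin and 0.634 with DMSO in HGC27, and 4.92 with periplocymarin and 2.01 with DMSO in MKN45 (0.93 ± 0.30, adjusted p = 0.0851). Both genes were above their vehicle level in each line, and exons of ZNF577 overlap those of ZNF649 on the same strand. ZNF146, whose levels are given above, had a fitted difference of 0.85 ± 0.28 (adjusted p = 0.0884). It was called higher when the test was restricted to genes averaging 10 FPKM or more (limma adjusted p = 0.0287). ZNF551, which shares the overlapping gene AC003006.1 with ZNF776, had 4.28 FPKM with periplocymarin and 2.85 with DMSO in HGC27, and 11.1 with periplocymarin and 4.12 with DMSO in MKN45 (0.85 ± 0.31). ZNF850, with 29 fingers, had 2.54 FPKM with periplocymarin and 0.746 with DMSO in HGC27, and 1.79 with periplocymarin and 0.795 with DMSO in MKN45 (0.83 ± 0.32). The KRAB genes ZNF616, ZNF700, ZNF614 and ZNF506 and ZNF121 made up the rest of the 10, with differences of 0.68 to 0.76.

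Among the 10 most negative differences, 5 members had no KRAB box found. After ZNF358 these were ZNF581, with 1.87 FPKM in periplocymarin and 3.55 FPKM in DMSO in HGC27, and 2.36 in periplocymarin and 6.67 in DMSO in MKN45 (-0.93 ± 0.30, limma adjusted p = 0.0868). Exons of ZNF580 and CCDC106 overlap those of ZNF581 on the same strand. ZNF784 had 1.22 FPKM with periplocymarin and 2.57 with DMSO in HGC27, and 0.497 with periplocymarin and 1.47 with DMSO in MKN45 (-0.71 ± 0.31). ZNF524, a protein that binds telomeric DNA, had 0.913 FPKM with periplocymarin and 1.91 with DMSO in HGC27, and 2.24 with periplocymarin and 4.50 with DMSO in MKN45 (-0.69 ± 0.30). ZNF414 had 1.38 FPKM with periplocymarin and 2.55 with DMSO in HGC27, and 0.349 with periplocymarin and 1.25 with DMSO in MKN45 (-0.66 ± 0.31). The other 5 were the KRAB genes ZNF302, ZNF181, ZNF114, ZNF627 and ZNF558, all lower in periplocymarin in both lines. ZNF627 had 3.84 FPKM with periplocymarin and 7.31 with DMSO in HGC27, and 1.45 with periplocymarin and 2.95 with DMSO in MKN45 (-0.73 ± 0.29), and ZNF558 had 1.94 FPKM with periplocymarin and 3.85 with DMSO in HGC27, and 2.38 with periplocymarin and 4.04 with DMSO in MKN45 (-0.65 ± 0.29). ZNF114 was low in MKN45, where it had 4 reads in periplocymarin and 50 in DMSO, against 79 and 319 in HGC27.

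Within the family, the medians differed by KRAB box and by base composition. None of the 117 tested KRAB genes was called by limma, and their median fitted difference was 0.053. At an unadjusted p under 0.05, 9 of them were higher and 3 lower, and limma-voom called 2 lower (ZNF181 and ZNF302). Of the 25 tested genes with no KRAB box found, 1 fell, and their median was -0.12. The 25 split by coding GC content. In the 16 with a coding GC of at least 60%, 12 had a difference below 0 and the median was -0.49. In the other 9, 6 had a difference above 0 and the median was 0.42, with ZNF146, ZNF121, ZNF134, ZNF260 and ZNF714 among them. The split at 60% was placed after the values were seen, in the gap between 54.8 and 62.1% GC where no tested member lay. Over all protein-coding genes with a mean of 1 to 16 FPKM, the median was -0.19 for 2103 genes at or above 60% and 0.033 for 6084 below it, so the same direction was present outside the family. Across the 142 tested members, Spearman's rho of the fitted difference was 0.34 with mean FPKM, 0.24 with the number of fingers and -0.15 with coding GC. These describe genes that share 4 libraries and are not independent.

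**Figure D2:**
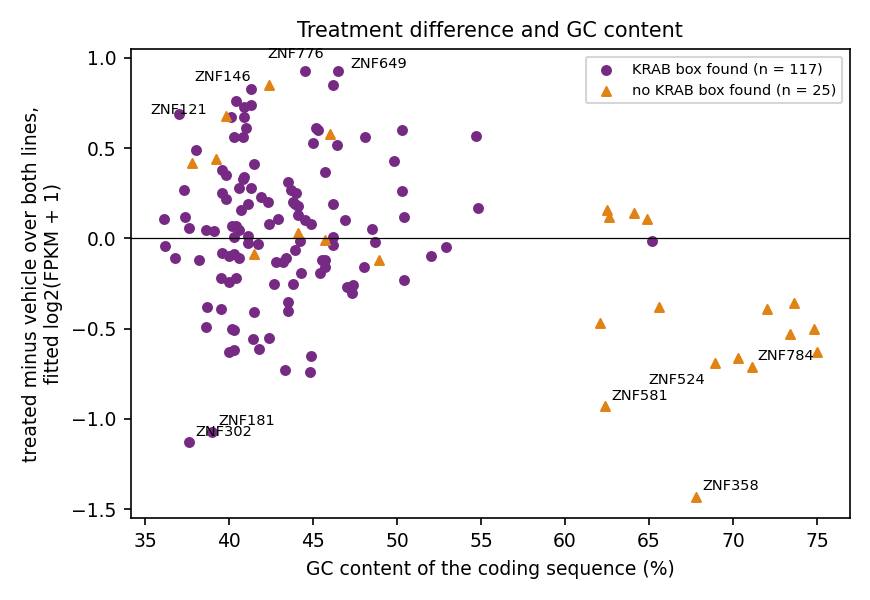
Fitted treated minus vehicle difference over both lines, in log2(FPKM + 1), against the GC content of the coding sequence in percent, 1 mark for each of the 142 tested members. Purple circles are the 117 genes with a KRAB box and orange triangles the 25 with none found. Of the 16 orange triangles at or above 60% GC, 12 lie below 0.

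Many of the GC-rich members lie together. The cluster from ZNF628 to ZNF835 (chr19:55476332-56671783) holds 16 members, of which 6 have a KRAB box, and all of its 8 tested members had a fitted difference below 0, with a median of -0.58. The 8 were ZNF579, ZNF524, ZNF865, ZNF784, ZNF580, ZNF581, ZNF787 and ZNF444, all with no KRAB box found and a coding GC of 62.4 to 75%. None passed limma or limma-voom, and 3 were lower at an unadjusted limma p under 0.05. ZNF787, the most abundant of them, had 5.48 FPKM in periplocymarin and 7.37 FPKM in DMSO in HGC27, and 4.65 in periplocymarin and 8.07 in DMSO in MKN45 (-0.53 ± 0.29, limma adjusted p = 0.257). All 8 were lower in periplocymarin in both lines. The summed FPKM of the cluster was 17.3 in periplocymarin and 28.8 in DMSO in HGC27, and 14.1 and 30.4 in MKN45. Of 5 other protein-coding genes tested within the same span, 1 fell and 1 had a difference above 0, with a median of -0.039. In the cluster from ZNF653 to ZNF791, which has 23 KRAB genes among 25 members, 9 of 12 tested members had a difference above 0 and the median was 0.28.

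Members were set beside genes of like level, because over the whole table the treatment difference was more positive at higher levels. At a mean of 1 to 2 FPKM the median fitted difference was -0.065 for 57 members, -0.49 for 45 ZNF genes on other chromosomes and -0.34 for all 2027 genes. At 2 to 4 FPKM it was 0.046 for 57 members, -0.16 for 58 ZNF genes elsewhere and -0.18 for all 2407 genes. At 4 to 8 FPKM it was 0.27 for 22 members, -0.16 for 51 ZNF genes elsewhere and 0.048 for all 2662 genes. In each of these bands more members had a difference above 0 than genes at large: 40.4, 52.6 and 72.7% of members, against 25.9, 37.6 and 53.7% of all genes. Only 3 members lay at 8 to 16 FPKM and 3 above. The medians are on the deposited scaling, and the gap between members and other genes of like level was not tested.

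**Figure D3:**
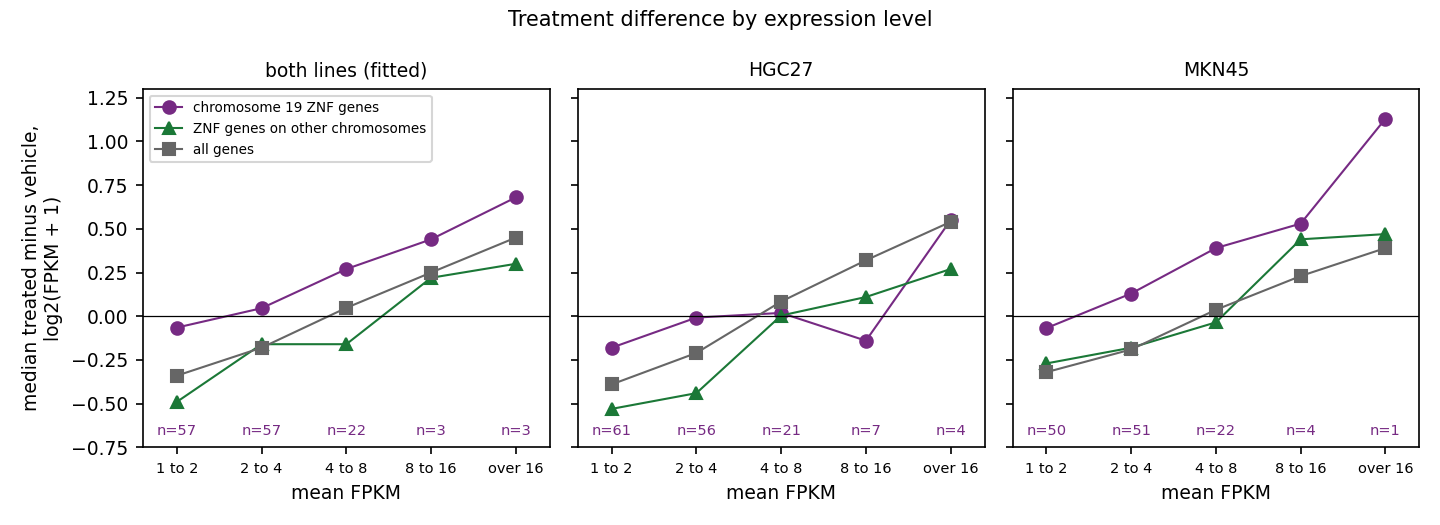
Median treated minus vehicle difference in log2(FPKM + 1) by band of mean FPKM, for the fit over both lines (left), HGC27 (middle) and MKN45 (right). Purple circles are members, with their number below, green triangles are ZNF genes on other chromosomes and grey squares are all genes. In the fit and in MKN45 the members lie above all genes in every band, and in HGC27 they lie below all genes at 4 to 8 and 8 to 16 FPKM.

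On the other chromosomes 189 ZNF genes were tested. Of these 3 rose and 12 fell (limma, adjusted p under 0.05), with a median of -0.16. Over all genes 3.43% rose and 3.17% fell. The 117 tested KRAB genes of chromosome 19 had a median of 0.053 and no call, and the 72 tested KRAB genes elsewhere a median of -0.24, with 3 lower and none higher past the test. At an unadjusted limma p under 0.05, 2 of the KRAB genes elsewhere were higher and 16 lower, and limma-voom called 3 lower and 0 higher. That unadjusted limma p was met by 28.4% of all genes, both directions together. The difference between the sets was not tested.

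Within a line there was 1 library per treatment, so differences have no replicate check and no p-value. They are given for members with a mean of at least 1 FPKM in that line, and a difference of at least 1 on the log2(FPKM + 1) scale was counted as 2-fold. At low levels this takes more than a 2-fold change of the FPKM itself. In HGC27, 149 members were measured. Of these 2 were higher in periplocymarin (ZNF468 and ZNF850) and 7 were lower (ZNF114, ZNF181, ZNF28, ZNF302, ZNF358, ZNF429 and ZNF571). Over the 11821 genes measured in HGC27, 9.72% were higher and 10.4% lower by this rule. The members' median was -0.087, against 0.11 for all genes. The split of 2 higher and 7 lower became 5 and 3 with quantile normalization, 0 and 12 with library totals alone, and 0 and 8 with the median of all genes subtracted. The members' median in HGC27 was 0.16 with quantile normalization.

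In MKN45, 128 members were measured, 3 higher (ZNF146, ZNF256 and ZNF551) and 3 lower (ZNF358, ZNF581 and ZNF792). Over the 11895 genes measured in MKN45, 8.21% were higher and 8.94% lower. The members' median was 0.083, against 0.068 for all genes, and it was -0.085 with library totals alone. The split of 3 and 3 became 5 and 2 with quantile normalization and 2 and 4 with library totals alone. ZNF358 was the 1 member past this rule on the log2(FPKM + 1) scale in both lines. On the FPKM itself other members also changed more than 2-fold in both lines. ZNF302 had log2 FPKM ratios of -1.52 in HGC27 and -1.20 in MKN45, and ZNF649 had 1.66 and 1.29. Counting intervals of the log2 FPKM ratio had a median half-width of 0.22 over tested members in HGC27 and 0.20 in MKN45. The intervals cover counting error only, since reads were not marked by molecular identifiers.

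Of the 113 members measured in both lines, 46 were higher in periplocymarin in both, 34 were lower in both and 33 had opposite signs. The share with the same sign was 70.8%, against 72.9% of the 10071 genes measured in both lines. Spearman's rho between the lines was 0.64 over the members and 0.60 over all genes, and Pearson's r was 0.67 and 0.61. Among the 33 with opposite signs, 22 were lower in HGC27 and higher in MKN45, and 11 the reverse.

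**Figure D4:**
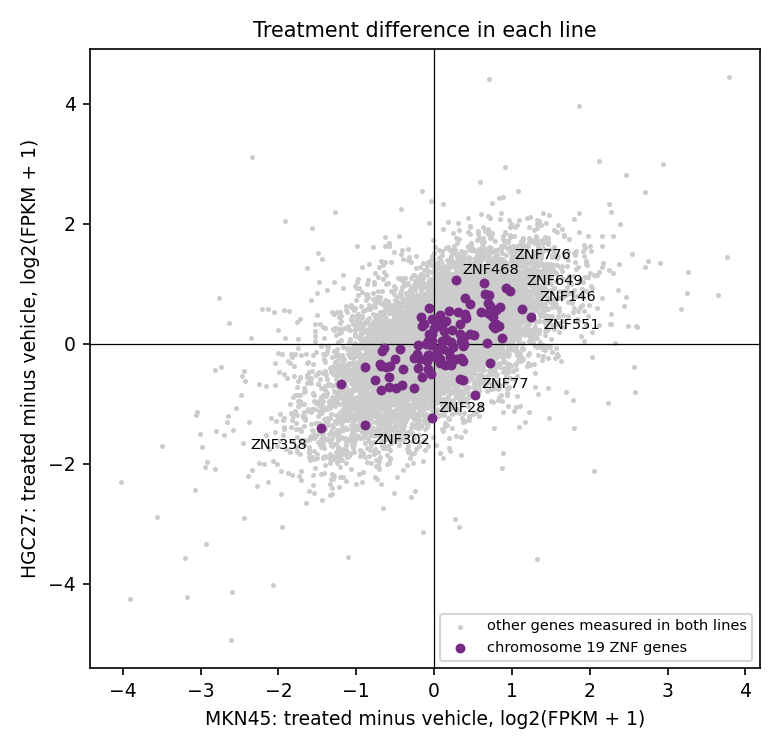
Treated minus vehicle difference in log2(FPKM + 1), HGC27 on the vertical axis and MKN45 on the horizontal axis, 1 point per gene that averaged 1 FPKM or more in each line. Purple points are the 113 members and grey points the other genes. ZNF358 is the lowest of the members in both lines, and 33 members have opposite signs on the axes.

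Among the 113 members measured in both lines, the 5 with the largest gap between the responses of the lines in each direction were as follows. ZNF468 had 5.49 FPKM in periplocymarin and 2.11 FPKM in DMSO in HGC27, against 6.83 in periplocymarin and 5.44 in DMSO in MKN45, and its response was larger in HGC27 by 0.78. ZNF28 had 0.270 FPKM with periplocymarin and 1.99 with DMSO in HGC27, against 3.69 with periplocymarin and 3.76 with DMSO in MKN45, a response in HGC27 minus that in MKN45 of -1.22. Exons of ZNF28 and ZNF468 overlap on the same strand, so reads of one could be counted for the other. ZNF227, another KRAB gene, had 7.77 FPKM with periplocymarin and 4.79 with DMSO in HGC27, and 3.57 with periplocymarin and 3.79 with DMSO in MKN45 (0.67). ZNF865 and ZNF444, from the GC-rich cluster described above, were lower in periplocymarin by 0.11 and 0.067 in HGC27 and by 0.67 and 0.64 in MKN45. ZNF77, a KRAB gene, had 2.7 FPKM with periplocymarin and 5.66 with DMSO in HGC27, and 3.06 with periplocymarin and 1.83 with DMSO in MKN45 (-1.37), and its neighbour ZNF57 had 2.94 FPKM with periplocymarin and 3.94 with DMSO in HGC27, and 8.16 with periplocymarin and 4.57 with DMSO in MKN45 (-1.04). ZNF544 had 2.32 FPKM with periplocymarin and 4.06 with DMSO in HGC27, and 2.72 with periplocymarin and 1.88 with DMSO in MKN45 (-0.97). ZNF473, which takes part in histone messenger RNA processing, had 1.56 FPKM with periplocymarin and 2.82 with DMSO in HGC27, and 4.66 with periplocymarin and 3.48 with DMSO in MKN45 (-0.92). ZNF175 went the other way, with 1.61 FPKM with periplocymarin and 0.924 with DMSO in HGC27, and 1.18 with periplocymarin and 1.45 with DMSO in MKN45 (0.61). With 1 library per line and treatment none of these differences could be tested.

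The second comparison asked how the members differed between the lines over both treatments. Of 142 tested members 28 were higher in HGC27 and 9 were higher in MKN45 (limma with treatment as a term, Benjamini-Hochberg adjusted p under 0.05), and 105 did not pass. Over all genes 16.3% were higher in HGC27 and 19.6% higher in MKN45. The members' median HGC27 minus MKN45 difference was 0.13, against -0.033 for all genes, and with library totals alone these were 0.24 and 0.13. Among tested KRAB genes 23 were higher in HGC27 and 9 in MKN45, and among those with no KRAB box found 5 were higher in HGC27 and 0 in MKN45 (1 at an unadjusted p under 0.05, 0 by limma-voom). Of the 142, 20 averaged under 1 FPKM in MKN45 and 9 under 1 FPKM in HGC27, so that they entered the test through the line where they were high and had to differ. They made up 11 of the 28 and 4 of the 9. Among the 113 at 1 FPKM or more in both lines, 17 were higher in HGC27 and 5 in MKN45, and over the 9990 tested genes that met the same condition the shares were 11.6% and 14.5%. In bulk RNA, fewer cells with a transcript and less transcript per cell cannot be told apart.

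The direction changed along the chromosome. In the 80 tested members before the cluster that starts with ZNF175 (chr19:1-51571297), 28 were higher in HGC27 and 2 in MKN45, with a median of 0.65. In the 62 from that cluster to the long-arm end, none was higher in HGC27 (limma, adjusted p under 0.05) and 7 were higher in MKN45, with a median of -0.17. At an unadjusted p under 0.05, 1 was higher in HGC27, and limma-voom called 1 (ZNF331). Among members at 1 FPKM or more in both lines, 17 of 61 in the first stretch were called higher in HGC27 and 5 of 52 in the second were called higher in MKN45. Other protein-coding genes of the first stretch also leaned to HGC27: of 573 tested, 197 were higher in HGC27 and 68 in MKN45, with a median of 0.54. Of 32 in the second stretch 3 were higher in HGC27 and 5 in MKN45, with a median of -0.041. The boundary was placed after the values were seen, and the copy number of the stretches was not analysed here. The medians of the clusters in the first stretch, in order along the chromosome, did not change evenly. They were -0.072 for ZNF554 to ZNF77, 1.52 for ZNF557 to ZNF358, 0.63 for ZNF414 to ZNF846, 0.82 for ZNF653 to ZNF791 and 0.76 for ZNF101 to ZNF254. They were 0.73 for ZNF507 alone, 1.19 for ZNF302 to ZNF792 and 0.83 for ZNF565 to ZNF573. Further on they were -0.76 for ZNF546 to ZNF780A, -0.23 for ZNF574 to ZNF526 and 0.10 for ZNF575 to ZNF180, and the lone tested genes ZNF114 and ZNF473 stood at 1.28 and -0.69. The last cluster, ZNF264 to ZNF446, had a median of -0.23, with 5 of its 32 tested members higher in MKN45.

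**Figure D5:**
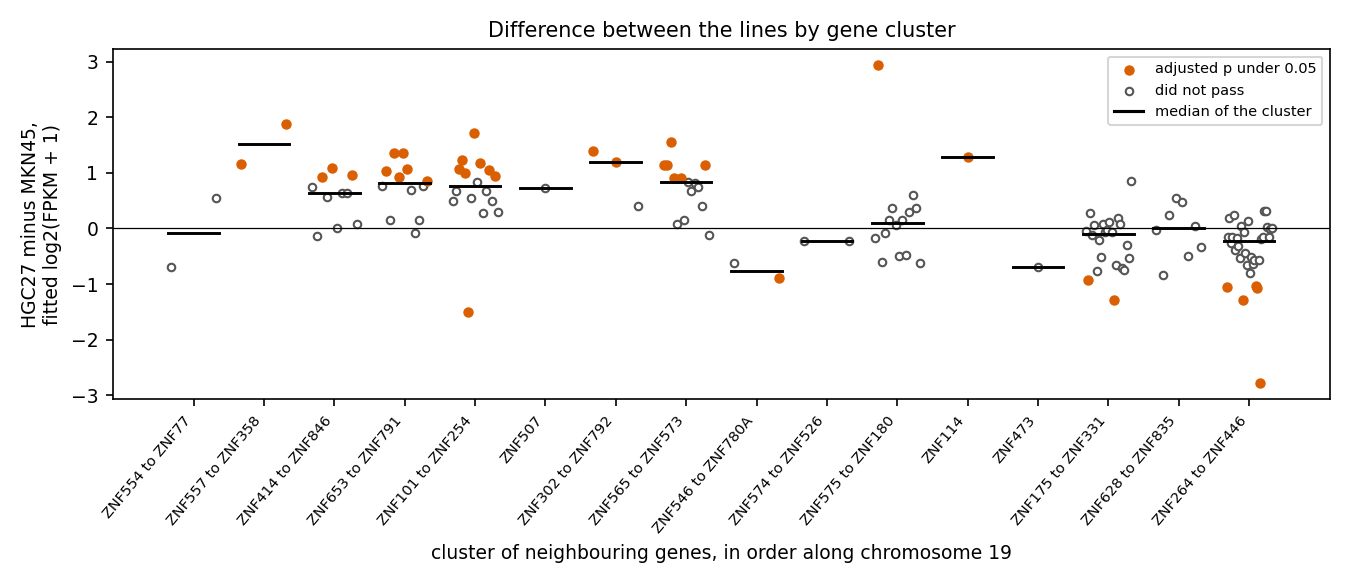
Fitted HGC27 minus MKN45 difference in log2(FPKM + 1) for each of the 142 tested members, grouped by cluster in order along chromosome 19, with the first and last gene of each cluster on the axis. Orange points passed the test, open points did not, and bars are cluster medians. Orange points lie mostly above 0 in the clusters up to ZNF565 to ZNF573 and below 0 in the last clusters.

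Among the members higher in HGC27, ZNF428 had the largest difference. This gene, with 1 finger found, had 8.47 FPKM in periplocymarin and 5.95 FPKM in DMSO in HGC27, and 0 in periplocymarin and 0.122 in DMSO in MKN45. It met the level needed for the test through HGC27 alone, so no p is given, and both HGC27 libraries lay above both MKN45 libraries. In periplocymarin its level was at least 105-fold higher in HGC27 than the 0.0810 FPKM that 3 reads would give in MKN45. ZNF358 was higher in HGC27 by 1.88 ± 0.29 (adjusted p = 8.35e-04). ZNF714 had 10.3 FPKM with periplocymarin and 7.43 with DMSO in HGC27, and 2.43 with periplocymarin and 1.57 with DMSO in MKN45 (1.72 ± 0.29, adjusted p = 0.00137). ZNF260, a protein made of zinc fingers with no KRAB domain, had 20.5 FPKM with periplocymarin and 14.3 with DMSO in HGC27, and 6.10 with periplocymarin and 4.4 with DMSO in MKN45 (1.55 ± 0.28, adjusted p = 0.00219). ZNF302 was higher by 1.39 ± 0.29 and ZNF700 by 1.36 ± 0.28, with adjusted p of 0.00517 and 0.00447. ZNF700 had 20.7 FPKM with periplocymarin and 11.2 with DMSO in HGC27, and 6.94 with periplocymarin and 4.04 with DMSO in MKN45. In all 6 of these genes both HGC27 libraries lay above both MKN45 libraries.

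Among the members higher in MKN45, ZNF256 had the largest difference. This KRAB gene with 15 fingers was at 0 in both HGC27 libraries, and had 9.56 FPKM in periplocymarin and 3.55 FPKM in DMSO in MKN45. Against the level that 3 reads would give in HGC27, it was at least 166-fold higher in MKN45 in periplocymarin and at least 84.3-fold higher in DMSO. It met the level needed for the test through MKN45 alone, so no p is given. ZNF90 had 0.112 FPKM with periplocymarin and 0.229 with DMSO in HGC27, and 2.56 with periplocymarin and 2.05 with DMSO in MKN45 (fitted HGC27 minus MKN45 difference -1.50, with no p since it too met that level through MKN45 alone). Among the 16 tested members of its cluster (ZNF101 to ZNF254), ZNF90 alone had a difference below 0, and 15 had a difference above 0. Some of the 15, such as ZNF253 and ZNF682, met the level needed for the test through HGC27 alone, so they had to differ. ZNF550 had 1.26 FPKM with periplocymarin and 1.70 with DMSO in HGC27, and 5.10 with periplocymarin and 4.88 with DMSO in MKN45 (-1.28 ± 0.30), and ZNF587 had 3.09 FPKM with periplocymarin and 4.11 with DMSO in HGC27, and 8.91 with periplocymarin and 8.44 with DMSO in MKN45 (-1.08 ± 0.29). ZNF28 (-1.28 ± 0.36) and ZNF264 (-1.05, with HGC27 again under the level) completed the 6 largest.

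Members listed at 0 in a single line were mostly those of MKN45. Of 234 members above 0 in any library, 25 (10.7%) were above 0 in both HGC27 libraries and at 0 in both MKN45 libraries, and 4 (1.71%) the reverse. Over all 32364 genes above 0 in any library these shares were 4.68% and 4.28%. The 25 rested on 4 to 1467 reads summed over the HGC27 libraries, and 3 of them on fewer than 10. At 1 FPKM or more in both libraries of the other line, the counts were 4 (ZNF229, ZNF569, ZNF829 and ZNF91) and 1 (ZNF256), which were 1.71% and 0.427% of the 234 members, against 0.769% and 0.859% of all genes. ZNF91, which represses SVA retrotransposons, had 1.51 FPKM in periplocymarin and 1.28 FPKM in DMSO in HGC27 and was at 0 in both MKN45 libraries. ZNF569 had 1.35 FPKM in periplocymarin and 1.92 in DMSO in HGC27, ZNF829 had 1.01 and 2.27, and both lie in the cluster from ZNF565 to ZNF573.

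The corepressors that KRAB proteins use and genes linked to them, such as DNMT1, UHRF1 and ATRX, were examined as a list of 27 genes. Of these 1 fell, CBX5, and none rose (limma, adjusted p under 0.05), while 3.17% of all genes fell and 3.43% rose. The median fitted difference of the list was 0.35, and 19 of the 27 had a difference above 0. At an unadjusted p under 0.05, 8 were higher and 3 lower, and limma-voom called 1 higher and 2 lower. The listed genes are more abundant than most ZNF genes, and their levels spread over several bands. The median of all genes was 0.048 at 4 to 8 FPKM and 0.25 at 8 to 16 FPKM. It was 0.45 for the 2837 genes at 16 FPKM or more. The list was not matched for level. CBX5, which encodes heterochromatin protein 1 alpha, had 14.8 FPKM in periplocymarin and 27.8 FPKM in DMSO in HGC27, and 0.856 in periplocymarin and 9.40 in DMSO in MKN45 (-1.67 ± 0.38, adjusted p = 0.0378). The other heterochromatin protein 1 genes of the list, CBX1 and CBX3, were higher in periplocymarin in both lines and did not pass. Their fitted differences were 1.07 ± 0.31 and 0.65 ± 0.27. UHRF1 was also higher in both lines and stood at the threshold without passing (1.12 ± 0.29, limma adjusted p = 0.05 after rounding). TRIM28, the direct partner of the KRAB domain, had 88.2 FPKM with periplocymarin and 47.8 with DMSO in HGC27, and 88.7 with periplocymarin and 52.2 with DMSO in MKN45 (0.81 ± 0.27, adjusted p = 0.0886). SETDB1 had 5.61 FPKM with periplocymarin and 8.73 with DMSO in HGC27, and 6 with periplocymarin and 6.63 with DMSO in MKN45 (-0.34 ± 0.29, adjusted p = 0.465). The HUSH complex genes TASOR and MPHOSPH8 were lower in periplocymarin in both lines and did not pass, with fitted differences of -0.97 ± 0.28 and -0.81 ± 0.28. PPHLN1, another HUSH gene of the list, had a fitted difference of -0.051 ± 0.28, with 0.052 in HGC27 and -0.15 in MKN45. Between the lines 6 of the 27 were higher in HGC27 and 4 in MKN45 (limma, adjusted p under 0.05), against 16.3% and 19.6% of all genes. TRIM28 did not pass, with a HGC27 minus MKN45 difference of -0.067 ± 0.27 (limma adjusted p = 0.869), while the deacetylase gene HDAC1 was higher in MKN45, with a difference of -2.13 ± 0.29 (adjusted p = 3.94e-04).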

How the data were processed

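Bead-captured messenger RNA from HGC27 and MKN45 was analysed from 1 table of 62710 genes by 4 libraries, grouped by their titles. The authors deposited FPKM, a unit read from the values, since no header names it. The tools fastp 2.0 and HISAT2 2.1.0 and the build hg38 are named, without roles, per the submitters' processing notes. How genes were counted, by which annotation and strand setting, is not given in the sources used here. Reads were recovered from the steps between low FPKM values and GENCODE 29 lengths (29682 of 32364 genes above 0, within 0.0001 reads), for 241 of the 247 members. The implied size factors (0.861 to 1.2) were close to trimmed-mean factors of those reads, so the deposited values appear to carry such a factor. Recovered reads gave depth, counting intervals (Clopper-Pearson, 95%), floors of 3 reads and the limma-voom alternative.

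The model was fitted to log2(FPKM + 1) by limma 3.58.1 in R 4.3.3, with line and treatment as terms, trend, 1 residual and 8.53 prior degrees of freedom, over 12353 genes with a mean of at least 1 FPKM and, where recovered, 10 reads. Values after ± are moderated SEs, and p-values are Benjamini-Hochberg adjusted with a threshold of 0.05. On simulated data with 12353 genes the treatment test called 41.7% of 2-fold and 98.7% of 4-fold changes, and 7.27% of its calls were false. Those data had a fixed spread, few changed genes and the same fold in both lines, and all levels were pooled. The shares therefore need not hold for the real libraries or for the members, which are low. Each line is in both treatments, so cell line is a block by design. Alternatives were quantile normalization, library totals alone, the median of all genes subtracted (within lines), a pseudocount of 0.1, no filter, a floor of 10 FPKM, no read minimum or a read minimum within lines, limma-voom and no block or treatment term.

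Fingers, KRAB boxes and GC content were found in the longest GENCODE 29 coding transcript. Promoters came from RefSeq (GRCh38.p14). Genes named in the text are the members called for treatment, the 10 largest treatment differences in each direction, the 8 highest levels, the 6 largest line differences and the 5 largest response differences in each direction, and others named for a count or cluster were chosen after their values were seen. The rule for members uses symbol and chromosome only, but the rule and the lists were chosen with earlier results of these data known.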

Additional observations from a re-analysis of the deposited data

Results flagged for a closer look

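Among the genes that the naming rule above picked, 6 had opposite signs in the lines and counting intervals (95%, counting error only) that left out 0 in both lines. They are part of the 33 members with opposite signs. ZNF529 and ZNF724, which that rule did not pick, met the same condition and are not described further. Each of the 6 was picked out because its HGC27 library pair moved one way and its MKN45 pair the other. With 1 library per line and treatment, the difference between the lines was not tested for any of them. The values are responses in HGC27 minus those in MKN45 on the log2(FPKM + 1) scale, and ratios are log2 FPKM ratios of periplocymarin over DMSO.

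ZNF77, a KRAB gene, had the largest such difference, -1.37, with ratios of -1.07 (-1.34 to -0.80) in HGC27 and 0.75 (0.43 to 1.06) in MKN45. Its neighbour ZNF57, also a KRAB gene, had a difference of -1.04, with ratios of -0.42 (-0.72 to -0.14) and 0.84 (0.63 to 1.04). Both tested members of their cluster thus moved in opposite ways in the lines. ZNF544 differed by -0.97, with ratios of -0.80 (-0.98 to -0.63) in HGC27 and 0.53 (0.35 to 0.71) in MKN45. ZNF473, whose protein is part of the machinery that processes histone messenger RNA, differed by -0.92, with ratios of -0.86 (-1.07 to -0.64) and 0.42 (0.28 to 0.56). ZNF507 differed by -0.34, with ratios of -0.16 (-0.23 to -0.079) and 0.23 (0.14 to 0.33). ZNF175 (OTK18) went the other way, with a difference of 0.61 and ratios of 0.80 (0.54 to 1.06) in HGC27 and -0.30 (-0.55 to -0.059) in MKN45.

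With library totals alone the interval of ZNF507 in MKN45 took in 0 (0.008, -0.09 to 0.11), while the other 5 kept opposite signs with intervals that left out 0.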

How the results depend on the processing

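The count of members called for treatment was 1, and it was 4 with library totals alone (ZNF181, ZNF302, ZNF358 and ZNF581, all lower), 2 with a pseudocount of 0.1, 3 with limma-voom, and 0 with no filter on low values or with no cell line block. With quantile normalization, with no read minimum and with a floor of 10 FPKM it stayed at 1, but at that floor the call was ZNF146, higher. Over all genes the 424 and 392 calls became 369 and 1180 with library totals alone, 750 and 730 with a pseudocount of 0.1, 503 and 742 with limma-voom, 231 and 389 with quantile normalization, 1055 and 199 with the floor, and 0 with no filter or no block. The line count of 37 members became 2 with no filter, 4 with a floor of 10 FPKM (5 members tested) and 6 with no treatment term, and ranged from 37 to 44 otherwise. The 2-fold counts of 9 in HGC27 and 6 in MKN45 became 21 and 19 with a pseudocount of 0.1, and 1 in each with the floor, which left 6 and 3 members. Fewer genes enter at the floor, and otherwise the cause was not tested. No result changed sign among the named genes. Of their recomputed values, 75 kept a call and 18 lost one, 129 that were not called stayed so and 7 became calls, and of those with no test 58 moved by less than the half-widths of their 95% counting intervals summed over the lines and 2 by more. The called values include line calls of ZNF428, ZNF256, ZNF90 and ZNF264, which met the level needed for the test through 1 line alone. These line calls had to differ, so no conclusion is drawn from how they held. The pairing is by cell line, which is the block of the test, and the labels give no replicate numbers.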

Other observations

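Other C2H2 genes of chromosome 19 with ZFP, ZIM, ZIK, ZSCAN or PEG symbols were also looked up, and 13 were found in the table. ZIM2, ZIM3, ZSCAN1, ZSCAN4 and PEG3 were at 0 in all 4 libraries. ZSCAN18 had 3.28 FPKM in periplocymarin and 3.42 FPKM in DMSO in HGC27, and 0 and 0.00996 FPKM in MKN45, with no p between the lines because it met the level needed for the test through HGC27 alone. ZFP82 had 0.760 and 0.703 FPKM, ZIK1 had 0.909 and 0.941 FPKM and ZFP30 had 0.738 and 1.13 FPKM in HGC27, and all 3 were at 0 in both MKN45 libraries. ZSCAN22 and ZSCAN18 were the only ones of the 13 abundant enough for the test, and neither was called for treatment (limma adjusted p = 0.941 and 0.964).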
